A study of Mus musculus with 16 samples.

Results

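The genes described here encode the mouse Fc receptors for IgG and the chain that carries their signal into the cell. They are *Fcgr1*, *Fcgr3* and *Fcgr4* (activating receptors), *Fcgr2b* (the inhibitory receptor), *Fcer1g* (the common Fc receptor gamma chain) and *Fcgrt* (the heavy chain of the neonatal Fc receptor). They were chosen by symbol and make up 6 of the 55385 genes in the table of read counts, and all 6 passed the filter on low counts. Together they took between 0.263% and 0.792% of the counts in a library (median 0.486%). RNA was sequenced from cells bound by CD11b magnetic beads, taken from brains of female mice at 20 wk after removal of the meninges and choroid plexus. The integrin chain CD11b marks microglia but also neutrophils, monocytes and macrophages. There were 16 libraries, 4 each from WT mice without the 5xFAD transgenes, from *Card9*-deficient mice (Card9-/-), from 5xFAD mice, and from *Card9*-deficient 5xFAD mice (Card9-/-5xFAD). The 5xFAD transgenes are human genes with mutations of familial Alzheimer's disease, driven in neurons by the *Thy1* promoter, so the sorted cells are not the cells in which that promoter is known to act. CARD9 is an adaptor that relays signals of Syk-coupled receptors, a class to which the activating Fc receptors belong.

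The libraries held between 2970148 and 19333325 counts (median 7944265). All 10 genes of a list of microglial markers were tested, and their summed expression ran from 16250.3 to 32797 CPM (a gene's counts scaled to a common total, on TMM library sizes) across the 16 libraries. *Card9* itself was expressed at 36.9 ± 16.3 CPM (SD, n = 4) in WT and at 29.1 ± 8.36 CPM in the libraries labelled Card9-/-. It was at 27.7 ± 8.28 CPM in 5xFAD and 20.2 ± 11.8 CPM in the libraries labelled Card9-/-5xFAD, and the ranges overlapped in both comparisons. The counts per gene therefore do not check the *Card9* genotype, which is taken from the labels, and every direction given for it rests on them. The labels name replicates but do not say that each library came from a separate mouse, so p-values measure the spread between these samples.

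Fc receptors bind the constant part of antibodies, and microglia and macrophages use them to take up material coated with IgG. The activating receptors pass their signal through the gamma chain, whose cytoplasmic tail holds an immunoreceptor tyrosine-based activation motif (ITAM). Src-family kinases phosphorylate its tyrosines, and the kinase Syk then docks there. FcγRIIb carries an inhibitory motif (ITIM) in its own tail, which recruits the phosphatase SHIP1, and most myeloid cells express both kinds of receptor. The neonatal Fc receptor works inside the cell, where it returns IgG and albumin from endosomes and spares them from degradation.

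These opposite motifs are shown because they set the inhibitory receptor apart from the gamma chain that the activating receptors share. Both are printed 5′ to 3′ on the coding strand from GENCODE M21 transcripts on GRCm38, with the tyrosine codons in capitals. The first spans residues 65 to 79 of the 86 residues encoded by Fcer1g-201, crosses an intron between its ends at chr1:171229889-171230072 (minus strand) and holds 2 such codons. The second covers residues 317 to 322 of 340 in Fcgr2b-201 and lies at chr1:170961071-170961088 (minus strand).
*Fcer1g* ITAM: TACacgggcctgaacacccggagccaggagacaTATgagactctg
*Fcgr2b* ITIM: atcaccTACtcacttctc

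*Fcgr2b* (chr1:170958617-170976547, minus strand), *Fcgr4* (chr1:171018920-171029761, plus strand), *Fcgr3* (chr1:171051174-171064935, minus strand) and *Fcer1g* (chr1:171229572-171234365, minus strand) are neighbours on chromosome 1. *Fcgr1* lies apart at chr3:96282909-96293969 (minus strand) and *Fcgrt* at chr7:45092990-45103851 (minus strand). *Fcgr2b* and *Fcgrt* overlap the antisense genes *Gm38204* and *Gm45669*, *Fcgr3* holds *Mir6546*, and *Fcgr4* holds *Gm26110*. The sources used here do not state whether counting used strand, so reads of the antisense partners cannot be told apart. *Fcgr3* and *Fcgr2b* share sequence: of the 1733 windows of 50 bases in *Fcgr3* transcripts, 166 (9.58%) were identical to a window in *Fcgr2b*, where they made up 166 of 5685 windows. The share of *Fcgr3* windows fell to 2.54% at 100 bases. *Fcgr1*, *Fcgr4*, *Fcer1g* and *Fcgrt* shared no window of 50 bases with another gene, so counts of *Fcgr3* and *Fcgr2b* are the less certain ones.

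RefSeq promoters (250 bases before to 50 after the start, GRCm38.p6) were found for all 6 genes and were searched on both strands for GAGGAAG, a core bound by the myeloid factor PU.1, and for TTCNNNGAA, the GAS element. The activating receptors are shown because each of their promoters held the PU.1-type core, whereas those of *Fcgr2b*, *Fcer1g* and *Fcgrt* held neither motif in this window. Over all 27025 promoters, 13.5% held GAGGAAG and 8.5% held TTCNNNGAA, and the 2 motifs did not overlap here. Capitals mark the motifs, with the PU.1-type core read on the other strand as CTTCCTC and the GAS element in *Fcgr1* as TTCCCAGAA. The core began 56 bases before the start in *Fcgr1*, 7 in *Fcgr3* and 23 in *Fcgr4*, and the GAS element began 109 bases before the start in *Fcgr1*. The *Fcgr3* and *Fcgr2b* windows lie wholly inside these genes as placed by GENCODE, so their results hold only for the RefSeq start used. A match describes these letters and not a bound site. The stretches lie at chr3:96293989-96294108 (minus strand), chr1:171059374-171059440 (minus strand) and chr1:171018873-171018939 (plus strand).
*Fcgr1* promoter: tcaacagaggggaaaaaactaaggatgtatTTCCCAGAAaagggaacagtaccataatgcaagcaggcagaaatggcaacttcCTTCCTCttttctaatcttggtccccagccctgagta
*Fcgr3* promoter: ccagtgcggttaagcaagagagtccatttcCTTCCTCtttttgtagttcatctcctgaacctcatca
*Fcgr4* promoter: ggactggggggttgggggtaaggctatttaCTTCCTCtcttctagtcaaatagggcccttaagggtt

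Levels were set side by side as CPM per kb of exon. The length joined all annotated exons of a gene, 5790 bases for *Fcgr2b*, 2589 for *Fcgr1* and 2102 for *Fcgrt*. *Fcer1g* was highest in every genotype, with 1871 ± 1242 CPM per kb (SD, n = 4) in WT and 2865 ± 901 CPM per kb in 5xFAD. *Fcgr3*, which encodes the low-affinity activating receptor FcγRIII, followed at 982 ± 542 CPM per kb in WT and 1743 ± 415 CPM per kb in 5xFAD. Its range overlapped that of *Fcer1g* in all 4 genotypes, although *Fcer1g* was above *Fcgr3* within each of the 4 libraries of every genotype. *Fcgr1*, the gene of the high-affinity receptor FcγRI, stood at 147 ± 34.3 CPM per kb in WT and did not overlap *Fcgr3* in any genotype. *Fcgr4* was the lowest, with 22.0 ± 6.42 CPM per kb in WT, 15.8 ± 2.84 in Card9-/-, 43.4 ± 12.5 in 5xFAD and 32.5 ± 9.81 in Card9-/-5xFAD. Between them, *Fcgr2b* and *Fcgrt* changed places: *Fcgrt* was above *Fcgr2b* in WT (141 ± 69.7 against 83.5 ± 25.7 CPM per kb) and below it in 5xFAD (109 ± 39.7 against 133 ± 21.4 CPM per kb). Their ranges overlapped in every genotype, but within libraries *Fcgrt* was above *Fcgr2b* in 3 of 4 WT and 4 of 4 Card9-/- libraries and below it in 3 of 4 5xFAD and 4 of 4 Card9-/-5xFAD libraries. *Fcgr1* was above *Fcgr2b* in all 4 libraries of every genotype, and above *Fcgrt* in all 4 libraries of both transgenic genotypes but in only 1 of 4 in WT and in Card9-/-, where the 2 genes did not differ beyond their spread. In 5xFAD the range of *Fcgr4* also reached that of *Fcgrt*. The order of *Fcgr1*, *Fcgr2b* and *Fcgrt* depends on the lengths used. In CPM the mean of *Fcgr2b* was above those of *Fcgr1* and *Fcgrt* in WT (484, 382 and 296 CPM). The same held in 5xFAD (767, 527 and 229 CPM).

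**Figure D1:**
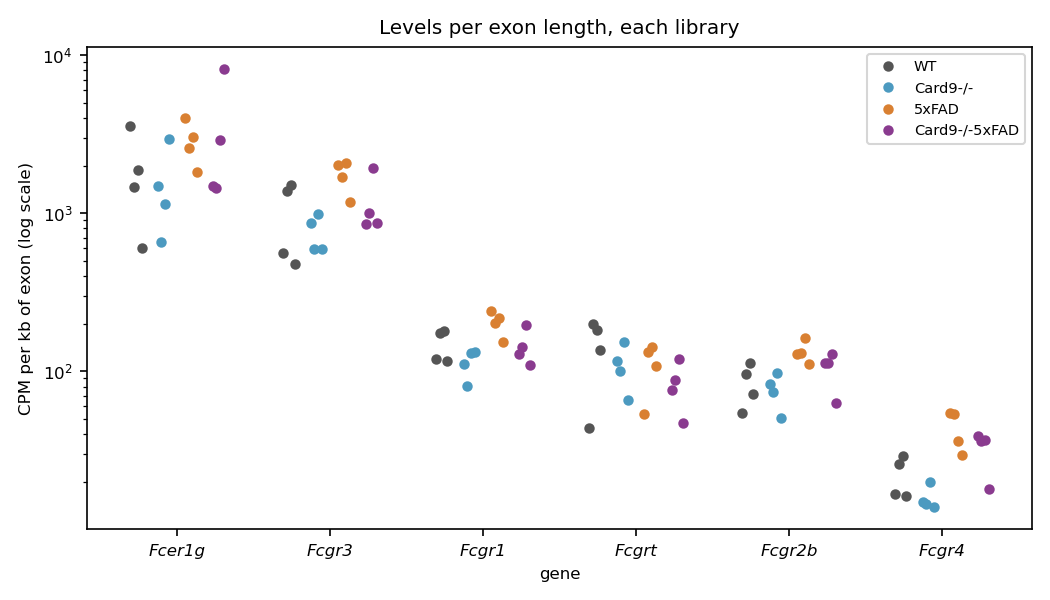
CPM per kb of exon (log scale) of each Fc receptor gene, with 1 point per library and colors for the 4 genotypes. *Fcer1g* and *Fcgr3* sit above the other genes in all libraries, and *Fcgr4* is the lowest gene, with a mean of 22.0 CPM per kb in WT.

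The first question was how the 5xFAD transgenes relate to these genes. *Fcgr4*, the gene of FcγRIV, showed the clearest difference. In WT it was at 20.95, 32.4, 36.4 and 20.5 CPM in replicates 1 to 4, and in 5xFAD at 68.6, 67.0, 45.1 and 37.3 CPM. In Card9-/- it was at 18.7, 18.2, 25.1 and 17.3 CPM, and in Card9-/-5xFAD at 48.6, 45.8, 46.4 and 22.4 CPM. Every 5xFAD library was above every WT library, and 3 of the 4 Card9-/-5xFAD libraries were above all Card9-/- libraries, while replicate 4 of Card9-/-5xFAD lay within the Card9-/- range. *Fcgr4* was 1.97-fold higher in 5xFAD than in WT (log2 fold change 0.98, SE 0.30, 95% interval 0.34 to 1.63), which did not pass edgeR's test at the FDR threshold of 0.1 (unadjusted p = 0.00528, adjusted p = 0.180). In Card9-/-5xFAD it was 2.06-fold higher than in Card9-/- (log2 fold change 1.04, SE 0.31, 95% interval 0.39 to 1.69, unadjusted p = 0.00359, adjusted p = 0.134). The gene was counted by between 53 and 493 reads per library. In bulk RNA, more cells of a type and more RNA per cell cannot be told apart.

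The call for *Fcgr4* depended on the test. DESeq2 on all libraries called it in both comparisons (adjusted p = 0.0714 for 5xFAD against WT and 0.0376 for Card9-/-5xFAD against Card9-/-). Without replicate 4 of Card9-/-5xFAD, a library of 2970148 counts, edgeR called it in Card9-/-5xFAD against Card9-/- (log2 fold change 1.24, adjusted p = 0.0418), with adjusted p = 0.1001 in 5xFAD against WT. Averaged over both *Card9* genotypes, a contrast chosen after the data were seen, *Fcgr4* rose 2.02-fold with the transgenes (95% interval 1.47 to 2.77, edgeR adjusted p = 0.00995), and 7 of the 8 transgenic libraries were above the highest library without transgenes (36.4 CPM). Counted the same way, it was 5 of 8 for *Fcgr2b*, 4 for *Fcgr1* and for *Fcgr3*, 2 for *Fcer1g* and 0 for *Fcgrt*. The share of all genes with such counts is not given here. In the averaged contrast 1 of the 6 genes was called, against 11.3% of the 14513 genes tested, or 5.62% counting only genes that rose.

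The replicate numbers also bore on the test. Within each *Card9* genotype, transgenic and non-transgenic libraries of the same number deviated together in 4 of 4 pairs. Some libraries of different number did so as well, so pairing by number is an assumption. *Fcgr4*, *Fcgr2b* and *Fcer1g* were higher in the transgenic library of each pair. *Fcgr1* and *Fcgr3* were higher in 4 of 4 pairs of 5xFAD and WT and 3 of 4 pairs of Card9-/-5xFAD and Card9-/-. *Fcgrt* was higher in 1 of 4 and 0 of 4. The share of all genes higher in each pair is not given here. The labels do not say what a number marks. With the number within *Card9* genotype as a block, a fit chosen after the data were seen, *Fcgr4* rose in 5xFAD against WT (log2 fold change 0.98, SE 0.23, edgeR adjusted p = 0.0241) and in Card9-/-5xFAD against Card9-/- (1.02, SE 0.24, adjusted p = 0.0155). The first call held when each of the 16 libraries was left out in turn (adjusted p up to 0.0998), and the second in 14 of 16, with adjusted p up to 0.104 without replicate 2 of Card9-/- or of Card9-/-5xFAD. In this fit leaving out 1 library also takes its same-numbered mate out of the comparison. Libraries of the other *Card9* genotype enter only through the scaling and the estimate of spread. These fits thus drop each of 4 pairs and are not 16 separate checks. The same applies to the blocked fits of the other genes. In the blocked fit 4 of the 6 genes passed in 5xFAD against WT (*Fcgr4*, *Fcgr2b*, *Fcgr3* and *Fcer1g*), against 16% of all genes (8.93% upward). It called 2 of 6 (*Fcgr4* and *Fcer1g*) in Card9-/-5xFAD against Card9-/-, against 20.4% of all genes (11.2% upward).

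**Figure D2:**
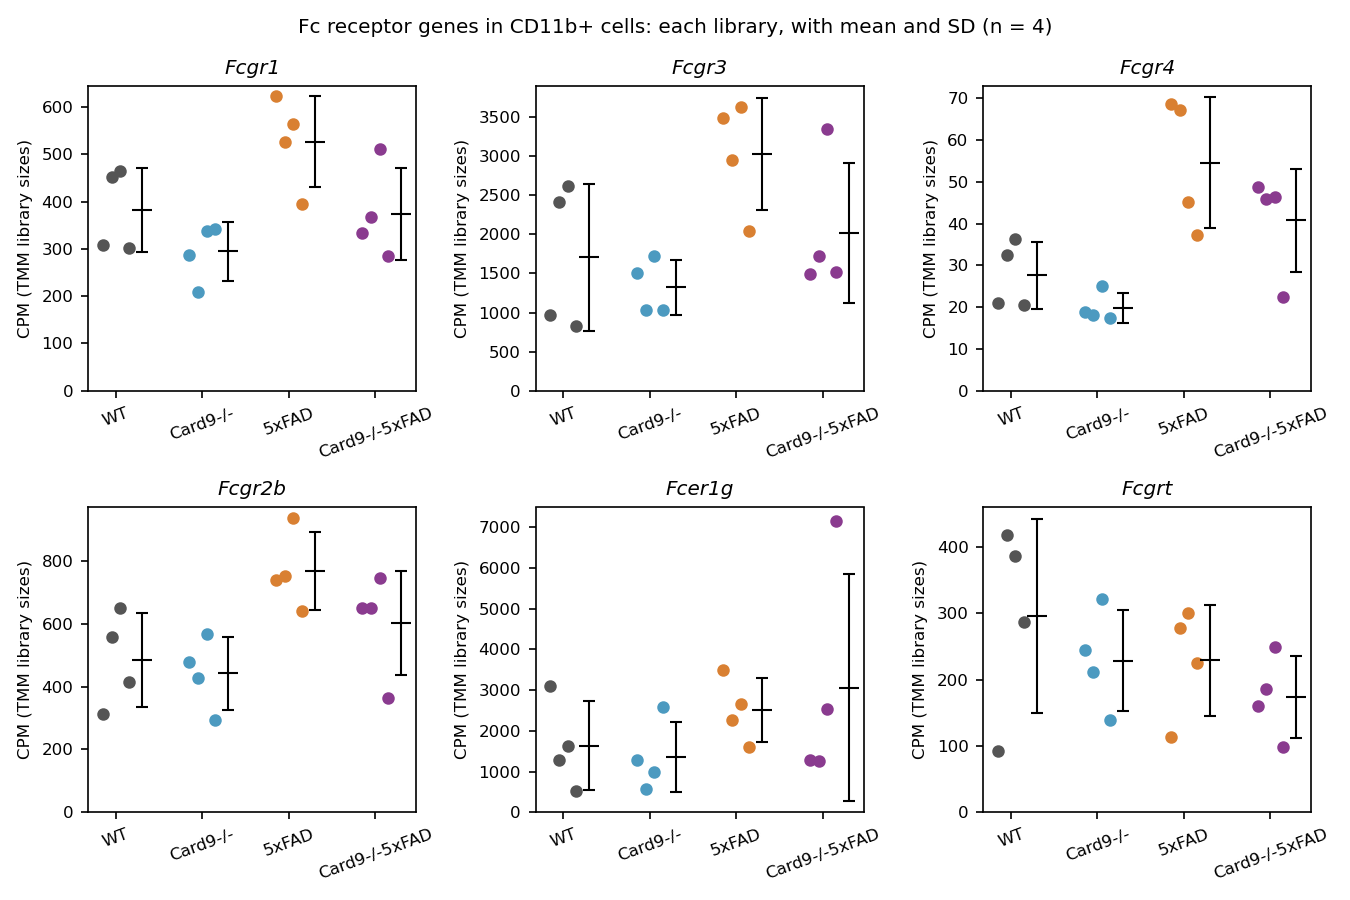
Expression in CPM of the 6 Fc receptor genes, with 1 point per library and black bars for the mean and SD of 4 libraries per genotype, on axes that start at 0. The 5xFAD points of *Fcgr4* (37.3 to 68.6 CPM) sit above all WT points (20.5 to 36.4 CPM), while the other genes overlap between these genotypes.

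*Fcgr3* was at 966, 2409, 2620.3 and 825 CPM in WT and at 3485, 2949, 3629 and 2039 CPM in 5xFAD. It was at 1505, 1029.5, 1726 and 1026 CPM in Card9-/- and at 1486, 1727, 3350.4 and 1511 CPM in Card9-/-5xFAD. WT libraries thus fell into a low and a high pair, 3 of the 4 5xFAD libraries were above both, and in Card9-/-5xFAD replicate 3 was well above the Card9-/- range and replicate 2 barely above it. Its log2 fold change came to 0.83 (SE 0.41, adjusted p = 0.489) in 5xFAD against WT and 0.61 (SE 0.41, adjusted p = 0.584) in Card9-/-5xFAD against Card9-/-. With the replicate block the first was 0.98 (SE 0.27, adjusted p = 0.0438), a call lost without replicate 1 or 4 of WT or of 5xFAD (adjusted p up to 0.155).

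*Fcgr1* was at 307, 453, 464 and 302 CPM in WT and at 623, 526, 564 and 395 CPM in 5xFAD. In Card9-/- it was at 288, 209, 339 and 342 CPM, and in Card9-/-5xFAD at 334, 367, 511 and 284 CPM. Again 3 of the 4 5xFAD libraries exceeded all WT libraries, and the genotypes overlapped through replicate 4 of 5xFAD. The log2 fold change was 0.47 (95% interval −0.13 to 1.06, adjusted p = 0.584) in 5xFAD against WT and 0.34 (95% interval −0.25 to 0.94, adjusted p = 0.678) in Card9-/-5xFAD against Card9-/-.

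*Fcgr2b*, the only receptor of the group that inhibits, was at 314, 556, 650.3 and 414 CPM in WT and at 740.4, 751, 938 and 640.3 CPM in 5xFAD. In Card9-/- it was at 479, 428, 568 and 292 CPM, and in Card9-/-5xFAD at 651, 649, 744 and 365 CPM. Replicate 4 of 5xFAD lay just under the highest WT library, and all others were above it. Its log2 fold change came to 0.67 (SE 0.31, 95% interval 0.01 to 1.32, unadjusted p = 0.0475, adjusted p = 0.454) in 5xFAD against WT and 0.45 (SE 0.31, adjusted p = 0.603) in Card9-/-5xFAD against Card9-/-. With the replicate block the first was 0.71 (SE 0.18, adjusted p = 0.0354), a call lost without replicate 1, 3 or 4 of WT or replicate 1 or 3 of 5xFAD (adjusted p up to 0.126).

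The balance of activating and inhibitory receptors was taken as the reads of *Fcgr1*, *Fcgr3* and *Fcgr4* over those of *Fcgr2b* within a library. It was 4.12, 5.20, 4.80 and 2.77 in WT and 5.64, 4.71, 4.52 and 3.86 in 5xFAD. It was 3.78, 2.94, 3.68 and 4.74 in Card9-/- and 2.87, 3.29, 5.25 and 4.98 in Card9-/-5xFAD. All genotypes overlapped, with means of 4.22 ± 1.07 (SD, n = 4) in WT, 3.78 ± 0.738 in Card9-/-, 4.68 ± 0.736 in 5xFAD and 4.10 ± 1.19 in Card9-/-5xFAD. Both kinds of receptor were thus higher in 5xFAD means, and their ratio differed by less than the spread between libraries.

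*Fcer1g* varied widely between libraries of 1 genotype. It was at 3111, 1272, 1630.1 and 528 CPM in WT and at 3486, 2269.8, 2658 and 1601 CPM in 5xFAD. In Card9-/- it was at 1292, 576, 998 and 2574 CPM, and in Card9-/-5xFAD at 1296, 1267, 2548 and 7140.1 CPM. A single library led each genotype, and the 7140.1 CPM of replicate 4 set the mean of Card9-/-5xFAD. Its log2 fold change came to 0.61 (SE 0.61, adjusted p = 0.765) in 5xFAD against WT. In Card9-/-5xFAD against Card9-/- it was 1.17 (SE 0.62, adjusted p = 0.469), and 0.33 (adjusted p = 0.801) without replicate 4 of Card9-/-5xFAD. With the replicate block these changes were 0.82 (SE 0.28, adjusted p = 0.0820) and 1.00 (SE 0.28, adjusted p = 0.0332). The first call was lost without replicate 2, 3 or 4 of WT or of 5xFAD (adjusted p up to 0.286), and the second without replicate 2 or 3 of Card9-/- or of Card9-/-5xFAD (adjusted p up to 0.132).

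The level of *Fcer1g*, whose exons add up to 874 bases, went with a property of the whole library: the slope of log2 CPM on log2 exon length over all tested genes, which is lower where short genes take more of the counts. A negative relation for a short gene is thus partly built into the slope, and other genes of that length are not compared here. Across the 16 libraries Pearson's r was −0.88 and Spearman's coefficient −0.89 (permutation test, two-sided, p = 1e-05 for r, the smallest that 100000 permutations can give, and 2e-05 for Spearman's coefficient; adjusted over 6 genes, 6e-05 and 0.00012). Without the 2 libraries farthest from the median slope r was −0.84, and it was −0.80 within the 8 transgenic libraries and −0.90 within the 8 others. *Fcgr1* gave r of −0.65 and a Spearman's coefficient of −0.61 (permutation test, adjusted p = 0.0194 and 0.0425), but r of −0.41 without the 2 farthest libraries, so that relation rests in part on them. For *Fcgr4* r was −0.38 and Spearman's coefficient −0.40 (permutation test, adjusted p = 0.190 and 0.185). For *Fcgr3* they were −0.49 and −0.55 (permutation test, adjusted p = 0.112 and 0.0574), with r of −0.31 without the 2 farthest libraries, −0.71 within the 8 transgenic libraries and −0.04 within the 8 others. *Fcgr2b* gave −0.11 and −0.27 (adjusted p = 0.679 and 0.342 by permutation test) and *Fcgrt* 0.37 and 0.25 (adjusted p = 0.190 and 0.342 by permutation test). The mean slope was −0.107 in 5xFAD and 0.00927 in WT. With the slope as a covariate, an alternative chosen after the data were seen, the log2 fold change of *Fcer1g* in 5xFAD against WT was 0.14 (edgeR adjusted p = 0.822) and that of *Fcgr4* was 0.99 (adjusted p = 0.0875).

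**Figure D3:**
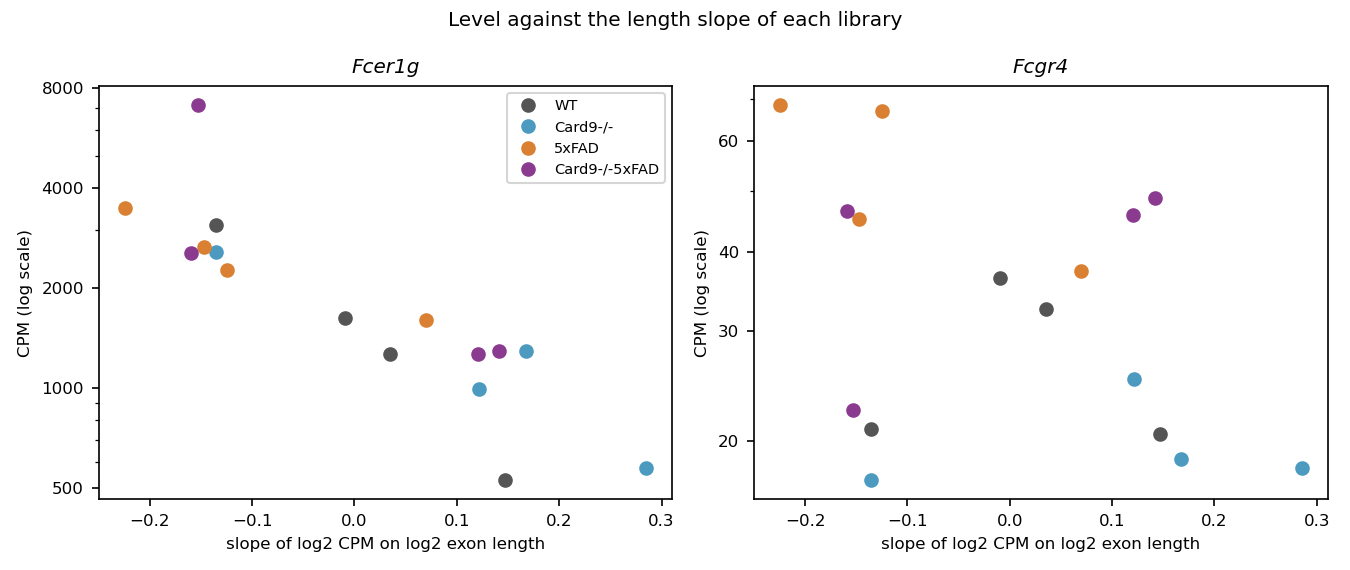
CPM (log scale) of *Fcer1g* and *Fcgr4* against the slope of log2 CPM on log2 exon length, with 1 point per library and colors for genotypes. *Fcer1g* falls along the slope across all genotypes (r of −0.88), and the *Fcgr4* points do not line up (r of −0.38).

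*Fcgrt* was at 92.4, 418, 386 and 286 CPM in WT and at 113, 278, 300.2 and 225 CPM in 5xFAD. In Card9-/- it was at 244, 211, 321 and 139 CPM, and in Card9-/-5xFAD at 161, 186, 249.9 and 98.9 CPM. In all 4 genotypes the library with the least *Fcgrt* was the one with the most *Fcer1g*, namely replicate 1 of WT and of 5xFAD and replicate 4 of Card9-/- and of Card9-/-5xFAD. Unlike the other genes, *Fcgrt* had a log2 fold change below 0 in both transgene comparisons, −0.37 (SE 0.44, adjusted p = 0.814) in 5xFAD against WT and −0.40 (SE 0.44, adjusted p = 0.781) in Card9-/-5xFAD against Card9-/-.

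Counted together, 0 of the 6 genes passed edgeR's test in 5xFAD against WT, where 2.09% of the 14513 genes did, and 0 of 6 passed in Card9-/-5xFAD against Card9-/-, where 1.97% did. At an unadjusted p under 0.05 there were 2 (*Fcgr4* and *Fcgr2b*) in 5xFAD against WT, where 10.8% of all genes reached it (5.12% upward), and 1 (*Fcgr4*) in Card9-/-5xFAD against Card9-/-, where 12.2% did (6.49% upward). DESeq2 on all libraries called 1 of the 6, *Fcgr4*, in each, against 3.24% of the genes to which it gave an adjusted p in 5xFAD against WT and 4.82% in Card9-/-5xFAD against Card9-/-. *Fcgr4* alone had ranges that did not overlap between 5xFAD and WT, as did 8.04% of all genes (4.35% upward), and 0 of 6 did between Card9-/-5xFAD and Card9-/-, against 7.01% (3.53% upward). The log2 fold change was above 0 for 5 of the 6 genes in both comparisons, against 38.9% of all genes in 5xFAD against WT and 39.4% in Card9-/-5xFAD against Card9-/-. The median over the 6 genes was 0.64 and 0.53 in these comparisons, and over all genes −0.15 in both.

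**Figure D4:**
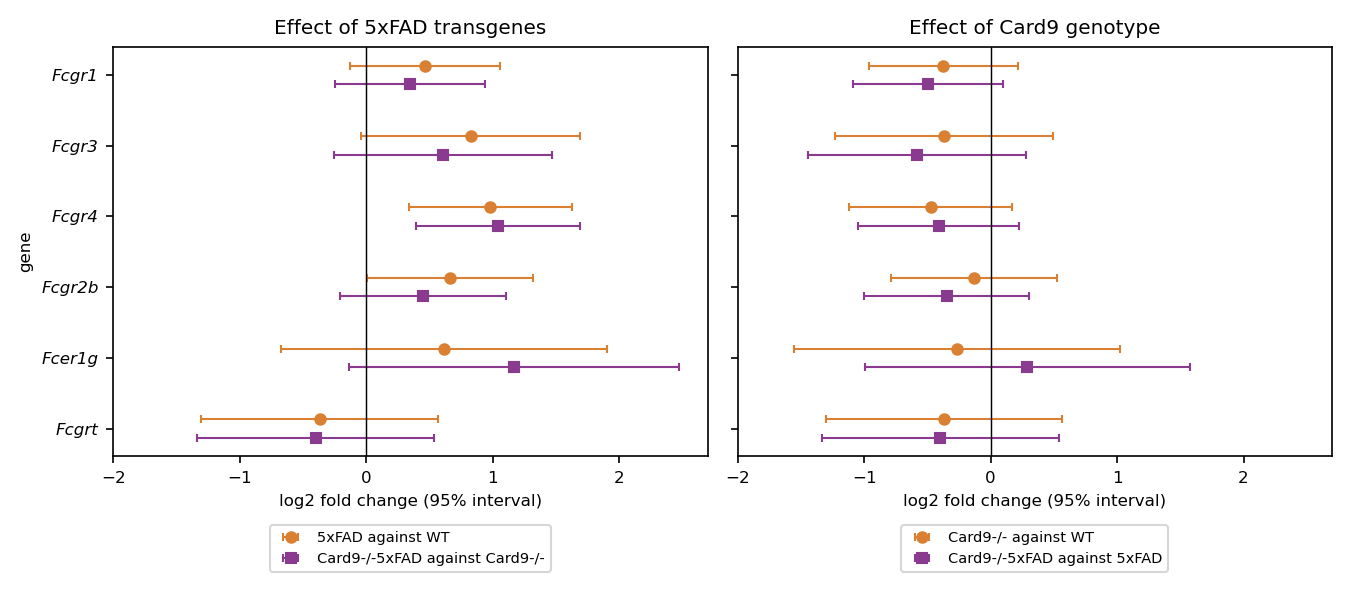
log2 fold changes of the 6 genes with 95% intervals from edgeR, for the transgenes (left) and for the *Card9* genotype (right), each in both backgrounds. The intervals of *Fcgr4* lie above 0 in both transgene comparisons (0.34 to 1.63 and 0.39 to 1.69), and every interval of the *Card9* comparisons includes 0.

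The second question was whether *Card9* deficiency relates to the same genes. In Card9-/- against WT 0 of 6 genes passed edgeR's test, as did 0% of all genes, and 0 of 6 had an unadjusted p under 0.05 (4.11% of all genes) or ranges that did not overlap (2.66%). In Card9-/-5xFAD against 5xFAD it was again 0 of 6, with 0% of all genes called, 2.52% at an unadjusted p under 0.05 and 1.89% without overlap. DESeq2 on all libraries called 0 of the 6 in either, and 0.0169% and 0.00675% of the genes to which it gave an adjusted p. All 6 log2 fold changes were below 0 in Card9-/- against WT, from −0.47 for *Fcgr4* to −0.13 for *Fcgr2b*, while 59.5% of all genes were above 0. In Card9-/-5xFAD against 5xFAD 5 of the 6 were below 0, while 62% of all genes were above it.

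Among single receptors, *Fcgr1* came nearest to a difference between Card9-/-5xFAD and 5xFAD, at 374 ± 97.4 against 527 ± 96.7 CPM (SD, n = 4). Its log2 fold change was −0.49 (SE 0.28, 95% interval −1.09 to 0.10, adjusted p = 0.993), so that values from 0.471-fold to 1.07-fold lay within the interval. Averaged over both transgene states, a contrast chosen after the data were seen, *Fcgr1* gave −0.43 (95% interval −0.85 to −0.0147, unadjusted p = 0.0433, edgeR adjusted p = 0.534), and the intervals of the other 5 genes included 0. In that contrast 0 of 6 genes passed edgeR's test, against 0.0276% of all genes, and 1 of 6 had an unadjusted p under 0.05, against 9.12%. Back in Card9-/-5xFAD against 5xFAD, *Fcgr3* gave −0.58 (95% interval −1.45 to 0.28) and *Fcgr4* −0.41 (95% interval −1.05 to 0.23). *Fcgr2b* gave −0.35 (95% interval −1.004 to 0.31) and *Fcgrt* −0.40 (95% interval −1.34 to 0.54). *Fcer1g* gave 0.29 (95% interval −0.998 to 1.58), which turned to −0.55 without replicate 4 of Card9-/-5xFAD. The lower bounds ran from 0.367-fold for *Fcgr3* to 0.501-fold for *Fcer1g*, so decreases down to those bounds could not be told from no difference with 4 libraries a genotype.

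The interaction of *Card9* genotype and transgenes asks whether the transgene effect differs between *Card9* genotypes. It was called for 0 of 6 genes and 0% of all genes by edgeR, for 0 of 6 by DESeq2 on all libraries (0.00338% of the genes to which it gave an adjusted p) and for 0 of 6 with the replicate block (0% of all genes), and 0 of 6 reached an unadjusted p under 0.05 (0.537% of all genes). For *Fcgr4* the transgene effects of 0.98 and 1.04 differed by 0.06 (95% interval −0.84 to 0.97), and for *Fcer1g* by 0.56 (95% interval −1.26 to 2.38).

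Partners of the receptors in the signaling pathway were read from lists of general knowledge. Of 26 genes for kinases and adaptors downstream of an ITAM, 0 rose and 1 fell in 5xFAD against WT, and 0 of 26 were called in Card9-/-5xFAD against Card9-/-. The one that fell was *Vav3*, an exchange factor for small GTPases (log2 fold change −1.86, SE 0.44, adjusted p = 0.0465). *Syk*, named after its values were seen, gave −0.52 (SE 0.27, adjusted p = 0.511), and −0.50 (SE 0.16, adjusted p = 0.0704) with the replicate block. Of 12 genes of inhibitory signaling, 1 fell in 5xFAD against WT, *Dok3*, an adaptor that dampens kinase signaling (−1.23, SE 0.29, adjusted p = 0.0473), and 0 were called in Card9-/-5xFAD against Card9-/-. The lists had medians of −0.42 and −0.44 in 5xFAD against WT, against −0.15 over all genes. With that block 2 of the 26 passed upward and 8 downward in 5xFAD against WT, and 2 upward and 7 downward in Card9-/-5xFAD against Card9-/-. Of the 12 inhibitory genes 1 and 3 then passed, all downward.

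Among 20 genes of the phagocytic cup, *Myo1e*, a myosin that links membrane and actin, rose in both transgene comparisons (log2 fold change 2.24, SE 0.31, adjusted p = 0.000894 in 5xFAD against WT, and 2.13, SE 0.31, adjusted p = 0.00137 in Card9-/-5xFAD against Card9-/-), and the other 19 were not called. In the blocked fit 3 of the 20 passed upward and 2 downward in 5xFAD against WT, and 2 upward and 3 downward in Card9-/-5xFAD against Card9-/-. Of 7 tested receptors known to pair with the gamma chain, such as *Clec4e* and *Clec4n*, all had log2 fold changes below 0 in both comparisons (medians −0.72 and −0.70) and 0 were called, or 2 and 1, all downward, with the replicate block. *Tyrobp*, *B2m*, *Ighm* and *Ighg2b* are named after their values were seen. *Tyrobp*, which encodes the other ITAM adaptor of microglia, DAP12, gave 0.88 (SE 0.61, adjusted p = 0.641) in 5xFAD against WT, and 1.02 (SE 0.26, adjusted p = 0.0336) with the replicate block. *B2m*, the light chain that FcRn shares with class I molecules, gave 0.93 (SE 0.52, adjusted p = 0.558), and 1.02 (SE 0.24, adjusted p = 0.0203) with the block. Of the 4 tested genes among 13 further Fc receptors, 0 were called, or 0 and 1 with the block.

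Of 10 immunoglobulin genes 7 were tested and 0 were called in either transgene comparison, with or without the replicate block. Among the tested ones only *Ighg2b* is a heavy chain of IgG, the class these receptors bind. These are transcripts of the sorted cells, and IgG protein was not measured. *Ighm*, the heavy chain of IgM, was at 774 ± 305 CPM (SD, n = 4) in WT and 805 ± 275 CPM in 5xFAD, while *Ighg2b*, an IgG heavy chain, was at 2.07 ± 1.57 and 3.92 ± 1.77 CPM.

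Of 19 genes that respond to interferon gamma, an inducer of *Fcgr1* in myeloid cells, 0 rose in 5xFAD against WT and 1 fell, *Ciita*, the master regulator of class II genes (−1.26, SE 0.34, adjusted p = 0.0891). In Card9-/-5xFAD against Card9-/- *Cd274*, which encodes PD-L1, rose (1.82, SE 0.34, adjusted p = 0.0113) and *Ciita* fell (−1.40, SE 0.34, adjusted p = 0.0575). By contrast, 20 of 26 genes of disease-associated microglia (DAM) rose in 5xFAD against WT and 18 of 26 in Card9-/-5xFAD against Card9-/-, with medians of 1.82 and 1.83. DAM is a state described in microglia exposed to Alzheimer's pathology, so a rise of this list was foreseen. With the replicate block the interferon genes that passed were 3 upward and 4 downward in 5xFAD against WT and 4 upward and 2 downward in Card9-/-5xFAD against Card9-/-, and all 26 DAM genes passed upward in both. The Fc receptor genes had medians of 0.64 and 0.53 in the same comparisons. No gene of any list was called in a *Card9* comparison or in the interaction.

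**Figure D5:**
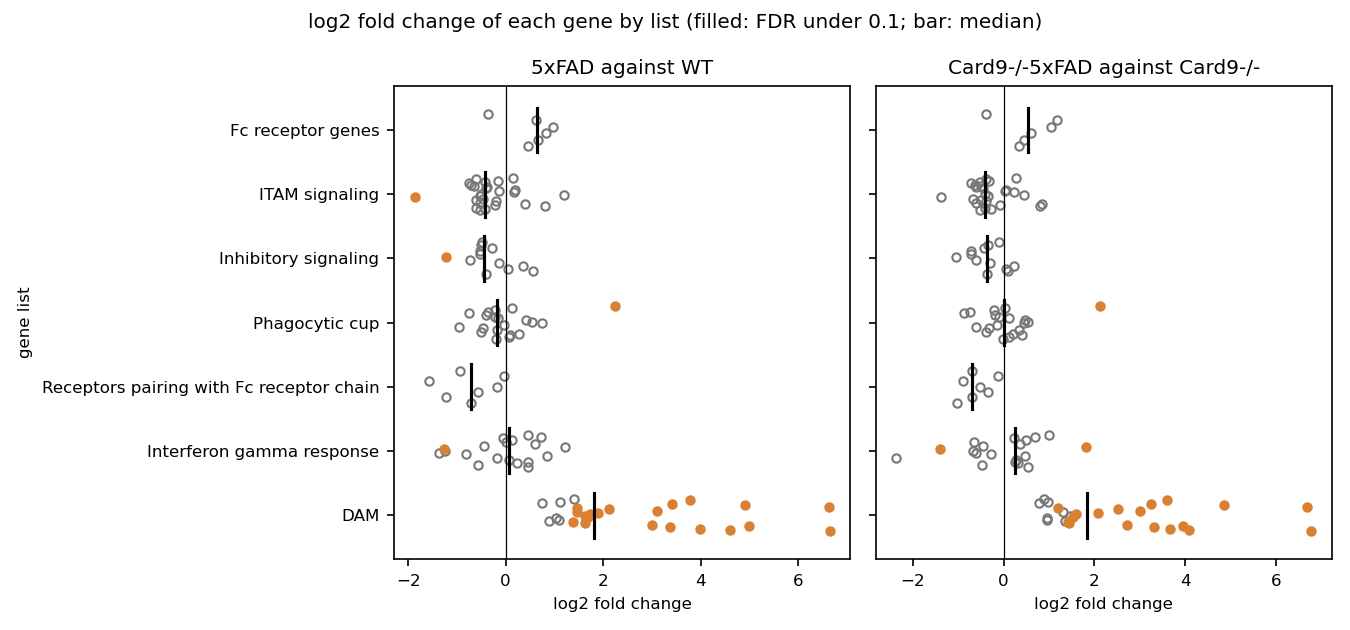
log2 fold changes of single genes by list in both transgene comparisons, with filled points for genes at an FDR under 0.1, open points for the others and a black bar for each list's median. The DAM genes lie to the right (median 1.82 in 5xFAD against WT), the Fc receptor genes lie nearer 0 (median 0.64) with no filled point, and *Myo1e* is the filled point of the phagocytic cup.

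Other myeloid cells also express Fc receptors, so their markers were read beside these results. The summed expression of 12 neutrophil markers was 3645, 1194, 2488 and 1146 CPM in WT and 2118, 790.1, 1937 and 849.7 CPM in 5xFAD. It was 1254, 1272, 1213 and 6361 CPM in Card9-/- and 565, 862, 504 and 6003 CPM in Card9-/-5xFAD. Within each genotype the library with the most neutrophil transcripts was thus also the one with the most *Fcer1g* and the least *Fcgrt*, and *Fcgr4* was not highest in these libraries except in 5xFAD. Of these markers 0 of 12 were called in 5xFAD against WT and 1, *Mmp9*, fell in Card9-/-5xFAD against Card9-/- (−1.71, SE 0.46, adjusted p = 0.0986). Under the replicate block 3 and 6 of the 12 passed, all downward. In each genotype the library with the most neutrophil transcripts also had the highest sums of monocyte, border macrophage and T or NK cell markers. It also had the lowest sum of microglial markers, at 16549 CPM in WT, 19024 in Card9-/-, 16250 in 5xFAD and 18816 in Card9-/-5xFAD. Its sum of B cell markers was the lowest as well. The part of neutrophils and of these other cell types in the *Fcer1g* values was not tested.

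Markers of border-associated macrophages were lower in 5xFAD. Their sum ran from 1126 to 1762 CPM in WT and from 641 to 875 CPM in 5xFAD, without overlap, and 3 of 10 fell (*Mrc1*, *Lyve1* and *F13a1*, with log2 fold changes from −1.46 to −1.20), while 1, *Mrc1*, fell in Card9-/-5xFAD against Card9-/-. Of 11 tested monocyte markers, 1 fell in 5xFAD against WT (*Itga4*, −1.48, SE 0.37, adjusted p = 0.0604). Under the block 5 and 6 of the border macrophage markers and 6 and 4 of the monocyte markers passed in these comparisons, all downward. The border macrophage sum ran from 1056 to 1964 CPM in Card9-/- and from 443 to 1863 CPM in Card9-/-5xFAD, with overlap. The monocyte sum ran from 315 to 485 CPM in WT and from 160 to 312 CPM in 5xFAD. It ran from 259 to 378 CPM in Card9-/- and from 121 to 257 CPM in Card9-/-5xFAD. The part of border macrophages and monocytes in the *Fcgr4* values was not tested. Of 13 T or NK cell markers 9 were tested and of 10 B cell markers 6, with 0 called in either transgene comparison. With the block 3 and 1 of the T or NK cell markers passed, all downward, and 0 of the B cell markers.

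The genes whose log2 CPM was most like that of each receptor over the 16 libraries were named by Pearson's r among 14512 genes, as a description over libraries that share genotype, depth and composition. For *Fcgr4* they were *H2.Q7* (r of 0.96), *Slamf9* (0.96) and *Rnaseh2b* (0.95), and after subtraction of genotype means *H2.Q5* (0.94), *H2.Q7* (0.93) and *Speg* (0.92). *H2.Q7* and *H2.Q5*, as the table spells them, are nonclassical class I genes, and *Slamf9* encodes a receptor of the SLAM family. For *Fcgr1* they were *Mrpl39* (0.98), *Wdr61* and *Hmgn2* (both 0.97). For *Fcgr3* they were *Sdhc* (0.93), *Dhrs7b* (0.92) and *Gm6517* (0.92), and *Sdhc* was also among the nearest after subtraction of genotype means (0.91).

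*Fcgr2b* was nearest to *Ogfod3*, *Akr1a1* and *Ggh* (each 0.97), *Fcer1g* to *BC028528*, *Lamtor4* and *Fkbp2* (each 0.96), and *Fcgrt* to *Tmem173* (0.98), the gene of the DNA-sensing adaptor STING. Among the 6 genes themselves r was 0.89 for *Fcgr1* and *Fcgr3*, 0.86 for *Fcgr2b* and *Fcgr3* and 0.86 for *Fcgr2b* and *Fcgr4*, and −0.00 for *Fcer1g* and *Fcgr2b*. The gamma chain thus varied across these libraries apart from the receptors: r was 0.40 with *Fcgr1*, 0.38 with *Fcgr3*, 0.26 with *Fcgr4* and −0.56 with *Fcgrt*. Many other genes were nearer to the receptors. *Fcgr3* was the 68th most like *Fcgr1* and the 402nd most like *Fcgr2b*, and *Fcgr4* the 421st most like *Fcgr2b*. After subtraction of genotype means r of *Fcgr2b* was 0.82 with *Fcgrt*, 0.75 with *Fcgr3*, 0.75 with *Fcgr4* and −0.49 with *Fcer1g*.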

How the data were processed

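RNA of CD11b+ brain cells was sequenced in 16 libraries, 4 per genotype, grouped by the labels. The authors used HISAT2 for alignment (mm10), Samtools for quality filtering and HTSeq for counting, and deposited unnormalized whole-number counts per gene symbol. The strand setting is not given in the sources used here. Counts were tested in R 4.3.3 with edgeR 4.0.16 (quasi-likelihood, all 16 libraries, 4 groups, TMM, filterByExpr with a minimum count of 10, 14513 genes), with Benjamini-Hochberg adjustment over all genes within a contrast and a threshold of 0.1. SEs come from the change and its F statistic. log2 CPM adds a prior count of 2. Alternatives used DESeq2 1.42.0, sva 3.50.0, other scalings and filters, and left out libraries. The test was checked on simulated counts. No 2 of the 16 libraries were copies (chi-square per degree of freedom at least 6.92 over 120 pairs). Groups share replicate numbers. Deviations of same-numbered libraries from their group means correlated over 0.1 in 4 of 4 pairs in 5xFAD against WT (r from 0.27 to 0.71) and in Card9-/-5xFAD against Card9-/- (0.13 to 0.73), but in 2 of 4 pairs in each *Card9* comparison, so the numbers were taken to pair the samples within a *Card9* genotype. Libraries of different number gave r from −0.63 to 0.43 and from −0.66 to 0.63 in these 2 transgene comparisons. Those ranges overlap the ranges of same-numbered libraries, so the pairing is an assumption. A fit with the number within *Card9* genotype as a block is given beside the results it changes.

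The genes named are the 6 receptors, *Card9*, the called genes of each list (at most the 6 of lowest FDR per list, of which the DAM genes are summarised), and the 3 genes most like each receptor (for some only the first is named). The genes and lists were chosen with earlier results of these data known. Sequences and positions come from GENCODE M21 and RefSeq on GRCm38, the assembly of mm10. For lists without a called gene only counts are given. Of lists not described above, homeostatic microglia (16 genes) and early response (20) had 0 genes called in either transgene comparison (2 and 3, and 5 and 1, with the replicate block, all lower). So had the tested markers of mast cells or basophils (3), neurons (3) and oligodendrocytes (5), with 1 and 1, 0 and 0, and 0 and 2 under the block. Called markers were *Bst2* (dendritic cells, higher in Card9-/-5xFAD against Card9-/-), *Pecam1* (endothelial, lower in 5xFAD against WT) and *Gfap* (astrocytes, higher in both), and under the block 4 and 4 of 8 dendritic cell, 2 and 2 of 10 endothelial and 3 and 3 of 7 astrocyte markers. Of the 10 microglial markers 0 were called without the block, and 0 and 3 with it.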

Additional observations from a re-analysis of the deposited data

Results flagged for a closer look

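Within Card9-/-5xFAD, 1 library stood far from the other 3 for 2 of the genes, by Dixon's ratio of the gap to the range at the 95% level. *Fcgr3* was at 3350.4 CPM in replicate 3, against 1486 to 1727 CPM in the others. *Fcgr4* was at 22.4 CPM in replicate 4, against 45.8 to 48.6 CPM in the others, and that library had the fewest counts (2970148). Chance marks about 1 in 20 groups in this way, and 24 groups of 4 (6 genes in 4 genotypes) were read. Groups of *Card9* and of the ratio of activating to inhibitory receptor were read as well, without a mark. The cause of the 2 outlying values was not tested.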

How the results depend on the processing

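In 5xFAD against WT, where edgeR called 0 of the 6 genes and 304 of all genes, 1 was called (*Fcgr4*) by DESeq2 on all libraries (adjusted p = 0.0714, 565 of all genes called) and on only the groups compared (0.0942, 669 called), with the length slope as a covariate (0.0875, 916 called) and without both libraries under 5000000 counts (0.0657, 582 called), the last 2 chosen after the data were seen, and 2 with 1 surrogate variable (*Fcgr4*, 0.0220, and *Fcgr2b*, 0.0425, 2068 called). Leaving out each library in turn gave 0 to 0 (164 to 386 called). In Card9-/-5xFAD against Card9-/-, also 0, with 286 called, the count was 1 (*Fcgr4*) under DESeq2 on all libraries (0.0376, 812 called) and on only the groups compared (0.0893, 433 called), the length slope (0.0684, 845 called) and without both small libraries (0.0640, 519 called), 2 with 1 surrogate variable (*Fcgr4*, 0.0173, and *Fcer1g*, 0.0739, 2567 called), and 0 to 1 leaving out each library (120 to 720 called). The call then came without replicate 4 of Card9-/-5xFAD (359 called). edgeR called 208 and 185 genes with no filter on low counts, and 171 and 148 where each library had to have 10 counts. On only the groups compared it called 294 and 96. At a threshold of 0.05 it called 222 and 162. None of these counts held one of the 6 genes. The members' count stayed 0 under every alternative run in the other 3 contrasts.

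With the replicate number as a block within *Card9* genotype, 4 and 2 of the 6 genes were called in the transgene contrasts (2322 and 2966 of all genes), or 1 to 4 and 0 to 3 leaving out each library (630 to 3304 and 1127 to 3490 called). With 1 replicate block for all 4 genotypes, whose same-numbered libraries correlated from −0.71 to 0.73, 0 and 1 were called (*Fcgr4*, adjusted p = 0.105 and 0.0956, 306 and 340 called).

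No log2 fold change turned in either transgene contrast. Those that turned elsewhere were not called. In Card9-/- against WT, *Fcgr2b* gave 0.0222 without both small libraries and −0.29 to 0.0441 leaving out each library, and *Fcer1g* gave 0.36 with the length slope and −0.77 to 0.24 leaving out each library. In Card9-/-5xFAD against 5xFAD, *Fcer1g* gave −0.10 with 1 surrogate variable, −0.56 without both small libraries and −0.55 to 0.53 leaving out each library. In the interaction, *Fcgr1* gave 0.0669 without both small libraries, *Fcgrt* 0.00418 where each library had to have 10 counts, and leaving out each library *Fcgr3* gave −0.58 to 0.0106, *Fcgr4* −0.10 to 0.26, *Fcer1g* −0.28 to 1.06 and *Fcgrt* −0.26 to 0.27. The cause was not tested. The ratio of activating to inhibitory receptor from summed counts was 4.44 in WT, 3.43 in Card9-/-, 4.69 in 5xFAD and 3.70 in Card9-/-5xFAD, each within 1 SD of the mean of library ratios.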
